A study of Mus musculus with 6 samples.

Results

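Lysine acetyltransferases, deacetylases and bromodomain readers were followed in primary cultures of mouse embryonic fibroblasts (pMEFs), the connective-tissue cells of the embryo, labelled as wild type or knocked out for the histone acetyltransferase HAT1. The set was chosen by name and function, not by measured values, although earlier results of these data were known. It comprised 49 of the 17512 genes in the count table, in 18 classes by role. RNA-seq had been carried out on 6 pMEF lines of the C57bl6 strain, all grown alike in serum-containing medium with no treatment named. The genotype of lines 36, 47 and 78 was HAT1 WT and that of lines 33, 41 and 72 was HAT1 KO, so that n = 3 for each genotype. The labels give no further allele, no sex and no age for any line. The study describes pMEFs as primary cultures of embryos whose internal organs had been removed, so that such a culture can hold cells other than fibroblasts, and p-values here measure the spread between these 6 lines only. The comparison asks whether the transcripts of other enzymes and readers of lysine acetylation differ in level once Hat1 is disrupted.

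An acetyl group on a lysine removes its positive charge and, on histone tails, creates a binding site for the bromodomain. Acetyltransferases transfer the group from acetyl-CoA, deacetylases remove it, either with a zinc ion or, for the sirtuins, with NAD, and bromodomain proteins bind it and bring other factors to chromatin. HAT1 acts before nucleosomes exist, acetylating newly made histone H4 in a complex with the chaperone RBBP7, while most of the enzymes described here act on chromatin or on other proteins.

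Total counts lay between 67720628 and 98786746 per library, and the ranges of the genotypes overlapped. Levels are given as CPM, counts relative to the total of each library after TMM scaling, and levels of different genes are compared only per kilobase of exon (CPM/kb). Hat1, the targeted gene, was measured at 17.4, 23.0 and 20.1 CPM in WT lines 36, 47 and 78 and at 10.2, 10.0 and 10.3 CPM in KO lines 33, 41 and 72. Its log2 fold change, KO minus WT, was -0.99 (SE 0.12, adjusted p = 0.0376 in the edgeR quasi-likelihood test), and the exact two-sided permutation test gave p = 0.1, the smallest p that 3 lines against 3 allow. Reads on Hat1 thus remained in every KO line, and which part of the gene was deleted is not given in the sources used here. The 10 fibroblast markers, among them Col1a1, summed to between 57738 and 89814 CPM in every line. The 10 macrophage and blood markers summed to 2147, 2182 and 2046 CPM in WT lines and 1241, 1301 and 1118 CPM in KO lines, and Ptprc, the pan-leukocyte antigen CD45, was measured at 98.6, 108 and 114 CPM in WT lines and 70.4, 65.7 and 63.8 CPM in KO lines. In such bulk RNA, fewer cells of a type and less RNA per cell cannot be told apart. The 12 proliferation markers summed to 526, 785 and 562 CPM in WT lines and 1085, 922 and 814 CPM in KO lines. The 6 endothelial markers in the table summed to between 20.1 and 44.2 CPM, most of it from Eng and Kdr. Pecam1 and Cdh5, each under 1 CPM, were lower in every KO line. An unadjusted p-value under 0.05 was found for 2 of the 5 endothelial markers tested, Pecam1 and Cdh5, against 14.6% of all genes. Of the 6 senescence markers 0 had one. Y-linked genes held 13788 and 12841 counts in WT lines 36 and 47, 231 in WT line 78 and between 4 and 8 in the KO lines, so sex-linked expression differed with genotype as well.

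No acetylation enzyme or reader other than Hat1 passed the adjusted threshold of 0.05. Enough reads for a test were present for 48 of the 49 genes. The count of these below that threshold was 0 in edgeR, against 0.528% of all 14773 tested genes that were called lower and 0% that were called higher. Voom with sample quality weights also called 0, and the DESeq2 Wald test called 4 (Ep300, Esco2, Hdac5 and Ncoa3), among 5.90% of all genes. The smallest adjusted p-value in edgeR belonged to Ncoa3 (0.126). Without adjustment, 10 of the 48 (20.8%) had a p-value under 0.05 in edgeR, against 14.6% of all tested genes and 16.4% of the 11103 genes at or above the level of the lowest gene tested here. Of these 10, 7 were lower in HAT1 KO (14.6%, against 8.77% of all genes and 9.21% of those 11103). The other 3 were higher (6.25%, against 5.88% and 7.21%). The lower ones were the acetyltransferases Ep300, Esco1 and Ncoa3, the deacetylases Hdac5 and Hdac9 and the readers Brd1 and Baz2a. The higher ones were Esco2, Hdac3 and Atad2. With lane in the model, 1 was lower and 1 was higher, against 4.91% and 1.39% of all genes in that fit. WT line 36 was alone on lane 8 and so dropped out of its genotype difference. What remained was WT line 47 against KO lines 33 and 72 (lane 6), plus WT line 78 against KO line 41 (lane 7). With 2 residual degrees of freedom, the lane fit cannot tell whether calls were lost to lane or to fewer lines. With sex-linked expression in the model the KO lines are compared with WT line 78 alone, so the number of calls in that fit is not given.

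The differences were small. The median log2 fold change of the 48 genes was -0.004, against 0.0085 over all tested genes, and the median of its size without sign was 0.120 against 0.164. It was 0.131 among genes at or above the level of the lowest gene tested here. The thresholds of the study, 1.5-fold and an unadjusted p-value of 0.05, were passed by 2 of the 48, Hdac9 (lower) and Esco2 (higher), against 6.11% of all genes. The 3 KO values lay outside the range of the 3 WT values for 15 of the 48 (31.2%, against 22.0% of all genes), below it for 9 (against 12.4%) and above it for 6 (against 9.59%). By type, 8 of 15 acetyltransferases, 6 of 18 deacetylases and 12 of 15 bromodomain readers had a negative log2 fold change, against 48.5% of all tested genes.

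**Figure D1:**
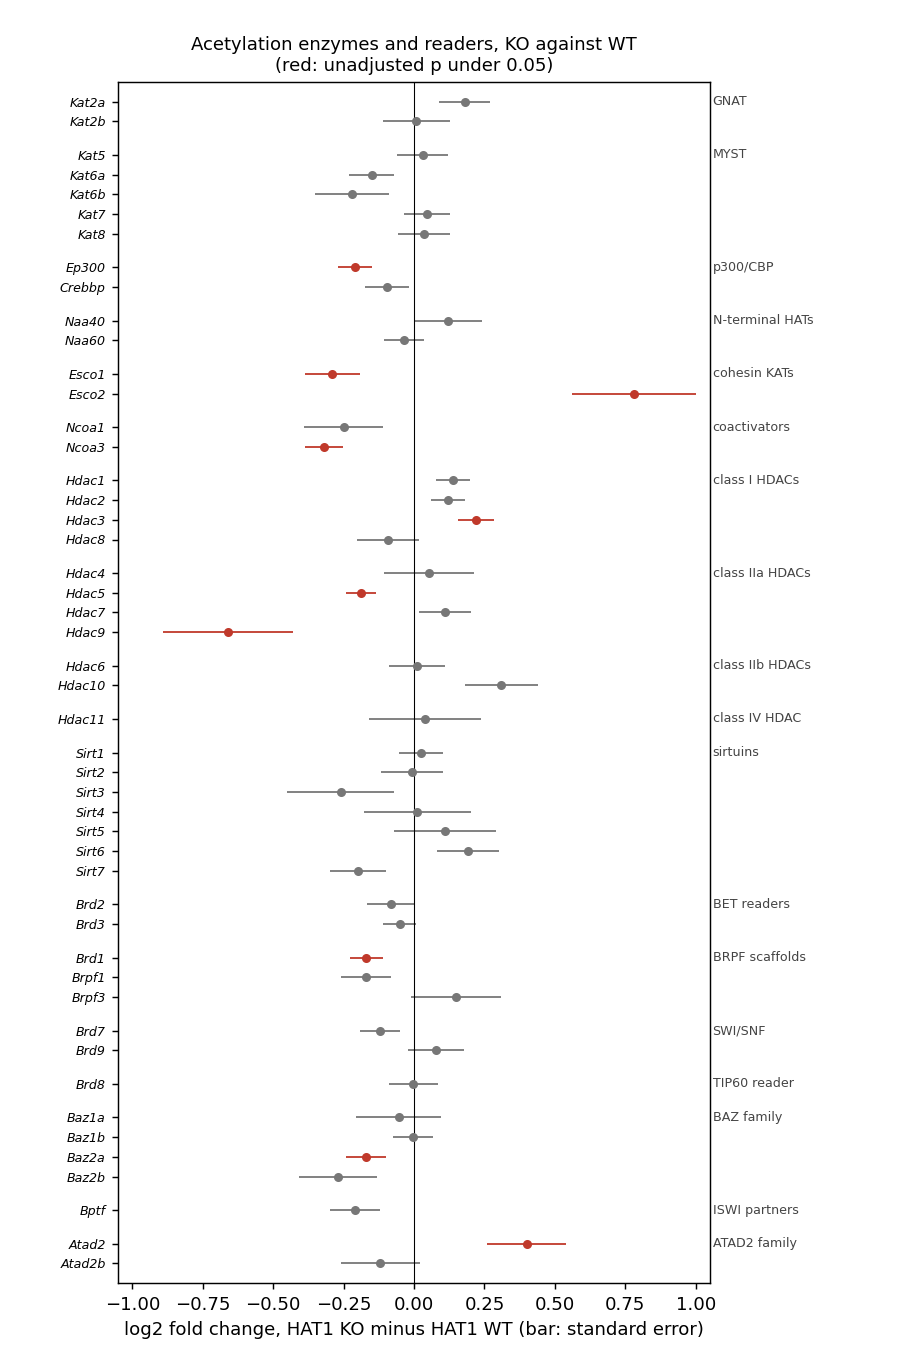
Log2 fold change, HAT1 KO minus HAT1 WT, of the 48 tested genes by class, with bars for the standard error and in red the 10 genes with an unadjusted p-value under 0.05. Esco2 (0.78) and Hdac9 (-0.66) lie farthest from 0, and the other values fall between -0.32 and 0.40.

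The acetyltransferases of histones and other nuclear proteins were present over a wide range of levels. In HAT1 WT pMEFs Crebbp was the highest per length (17.2 ± 0.698 CPM/kb, SD, n = 3) and exceeded the next gene, Ncoa3 (15.4 ± 0.499 CPM/kb), in every WT line. Ncoa3 and Kat6a (14.9 ± 1.32 CPM/kb) overlapped. Hat1 itself stood ninth of the 16 with 7.0 ± 0.969 CPM/kb and did not differ beyond the spread from Kat2b above it or Ncoa1 below it. At its KO level of 3.53 ± 0.0507 CPM/kb it lay close to Kat5 (3.76 ± 0.165 CPM/kb in HAT1 KO). Esco2 was the lowest (0.705 ± 0.187 CPM/kb).

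**Figure D2:**
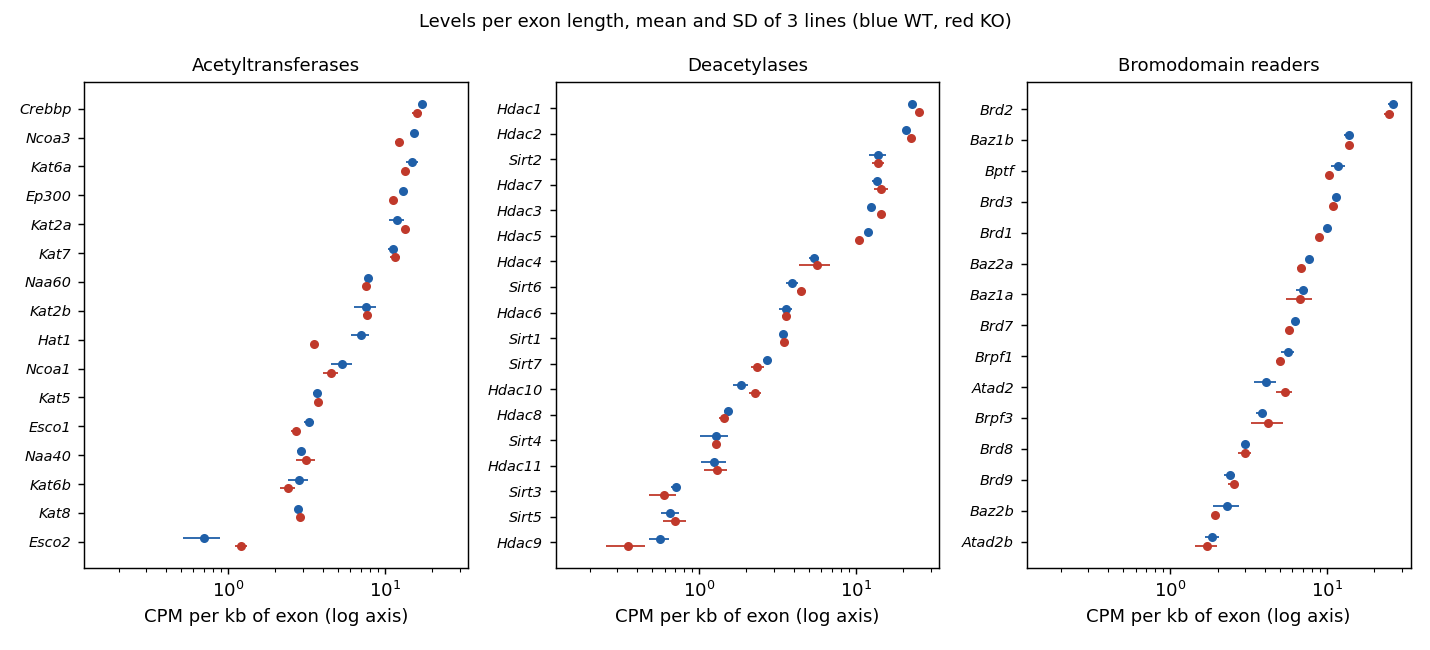
Level per kilobase of exon in the 3 HAT1 WT and the 3 HAT1 KO lines for Hat1 and the 48 tested genes, on a log axis, with points for the mean and bars for the SD. Brd2 (26.3 CPM/kb in HAT1 WT), Hdac1 (22.9) and Hdac2 (20.7) are the highest, and Hdac9 (0.558) is the lowest.

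p300 and CBP, encoded by Ep300 and Crebbp, are paralogous coactivators that acetylate lysines of the H3 tail and many transcription factors. Ep300 (chromosome 15, 81585351 to 81652077, plus strand) was measured at 183, 182 and 195 CPM in WT lines 36, 47 and 78 and at 165, 162 and 158 CPM in KO lines 33, 41 and 72. Every KO line was below every WT line, and the KO mean was 86.5% of the WT mean. Its log2 fold change was -0.21 (SE 0.0603, unadjusted p = 0.0126, adjusted p = 0.213 in edgeR, with adjusted p-values from 0.0394 in the DESeq2 Wald test to 0.776 with lane in the model). Crebbp (chromosome 16, 4081328 to 4213997, minus strand) was measured at 223, 233 and 242 CPM in WT lines and at 226, 227 and 200 CPM in KO lines. Here the ranges overlapped, and the log2 fold change was -0.10 (SE 0.0775, unadjusted p = 0.259).

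Kat2a, the GCN5 acetyltransferase of the SAGA and ATAC complexes, was measured at 43.1, 44.7 and 36.5 CPM in WT lines and at 47.9, 45.6 and 47.6 CPM in KO lines. The KO lines were all above the WT lines, while the difference did not pass the test (log2 fold change 0.18, SE 0.0900, unadjusted p = 0.0861). With sex-linked expression in the model, which compares the KO lines with WT line 78 alone, it was 0.37. Its paralogue Kat2b stood at 37.0 ± 5.88 CPM in HAT1 WT and 37.2 ± 2.20 CPM in HAT1 KO.

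Of the 5 MYST enzymes 0 had an unadjusted p-value under 0.05 and 0 had separate ranges, against 14.6% and 22.0% of all genes. Kat6a, the MOZ acetyltransferase, was measured at 126, 133 and 150 CPM in WT lines and at 121, 127 and 121 CPM in KO lines. It was the highest of the class per kilobase of exon, whereas Kat7 was the highest per length of the longest transcript. Kat8, the H4 tail acetyltransferase MOF and the lowest of the class, was measured at 8.33, 8.20 and 7.74 CPM in WT lines and at 8.30, 8.37 and 8.19 CPM in KO lines. The spread of Kat8 over all 6 lines was thus under 1 CPM. Kat5 (TIP60), Kat6b and Kat7 (HBO1) had KO means of 102%, 85.8% and 103% of their WT means. The exons of Kat5 share 12.1% of their bases with Rnaseh2c, on the other strand, and use of strand in counting was not stated. Naa40 and Naa60, which acetylate the amino termini of histones and of membrane proteins, had KO means of 109% and 97.5% of WT, and the exons of Naa60 share 15% of their bases with a gene on the other strand.

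The cohesin acetyltransferases differed in opposite directions. ESCO1 acetylates the SMC3 subunit of cohesin throughout interphase, and ESCO2 does so during DNA replication. Esco1 (chromosome 18, 10566507 to 10610352, minus strand) was measured at 15.5, 16.6 and 18.1 CPM in WT lines and at 14.5, 13.7 and 12.9 CPM in KO lines, a log2 fold change of -0.29 (SE 0.0970, unadjusted p = 0.0229, adjusted p = 0.264 in edgeR, 0.153 to 0.772 over the alternatives). Esco2 (chromosome 14, 65819038 to 65833994, minus strand) was measured at 3.25, 5.39 and 5.42 CPM in WT lines and at 8.90, 7.74 and 7.54 CPM in KO lines, from 245 to 793 counts. In both genes the KO and WT ranges were apart. The log2 fold change of Esco2 was 0.78 (SE 0.22, unadjusted p = 0.0119, adjusted p = 0.211 in edgeR, 0.0315 to 0.751 over the alternatives), and its KO mean was 172% of its WT mean. The ratio of Esco2 to Esco1 per length was 0.161, 0.249 and 0.229 in WT lines and 0.470, 0.435 and 0.448 in KO lines (exact two-sided permutation p = 0.1, the smallest possible, adjusted p = 0.3 over 6 pairs of paralogues). The sum of both was 3.99 ± 0.424 CPM/kb in HAT1 WT and 3.90 ± 0.265 CPM/kb in HAT1 KO.

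**Figure D3:**
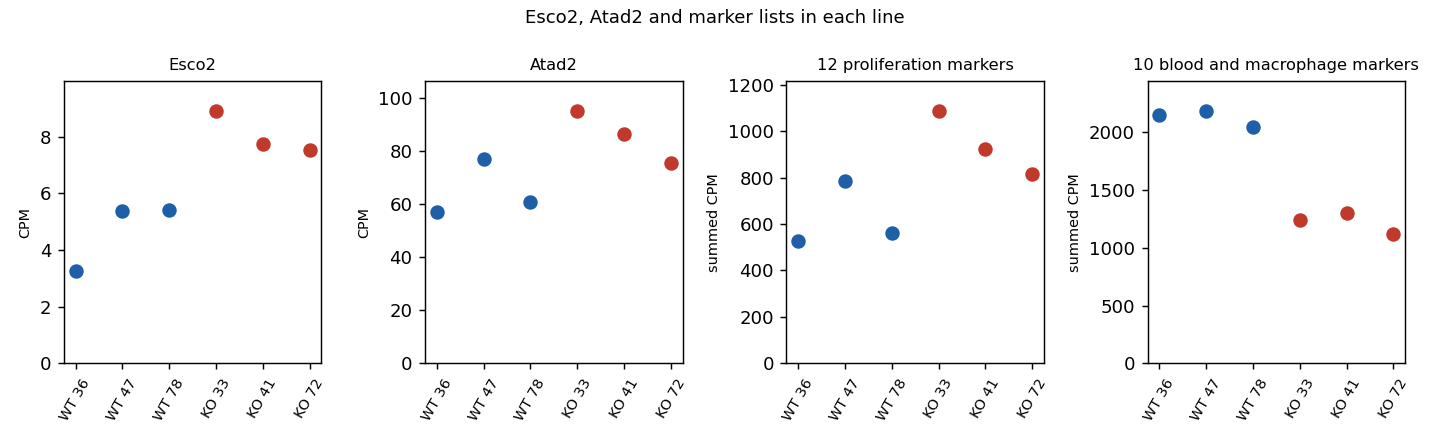
Level of Esco2 and Atad2 and summed levels of 12 proliferation markers and 10 blood and macrophage markers, all in CPM, in each of the 3 HAT1 WT (blue) and 3 HAT1 KO (red) lines. The proliferation sum is 526 to 785 CPM in WT lines and 814 to 1085 CPM in KO lines. The KO line with the highest sum, line 33, also has the highest Esco2 (8.90 CPM) and Atad2 (94.9 CPM). Among WT lines, line 47 has the highest sum (785 CPM) and Atad2 (76.8 CPM). Its Esco2 (5.39 CPM) is level with that of line 78 (5.42 CPM), where the sum is 562 CPM.

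The steroid receptor coactivators NCOA1 and NCOA3 bind nuclear receptors and bring p300 and CBP to them. Ncoa3 (chromosome 2, 165992636 to 166073242, plus strand) was measured at 118, 121 and 126 CPM in WT lines and at 104, 93.3 and 95.0 CPM in KO lines. The ranges were apart and the KO mean was 80.3% of the WT mean. Its log2 fold change was -0.32 (SE 0.0676, unadjusted p = 0.00301, adjusted p = 0.126 in edgeR, 0.00678 to 0.709 over the alternatives). Ncoa3 was the only gene of the 10 whose unadjusted p-value stayed under 0.05 in all 15 alternatives. A stretch of 1.95% of its exon bases is shared with Sulf2 on the other strand. Ncoa1 was measured at 42.5, 40.9 and 54.0 CPM in WT lines and at 41.9, 40.1 and 33.8 CPM in KO lines, with overlapping ranges (log2 fold change -0.25, SE 0.14, unadjusted p = 0.118).

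The class I deacetylases held Hdac1 and Hdac2, catalytic subunits of the SIN3, NuRD and CoREST complexes and the most abundant deacetylases per kilobase of exon. Hdac1 (22.9 ± 0.720 CPM/kb in HAT1 WT), Hdac2 (20.7 ± 0.520), Hdac3 (12.4 ± 0.496) and Hdac8 (1.53 ± 0.0868) were each above the next in every WT line. Hdac3, the catalytic subunit of the NCoR complex (chromosome 18, 37935844 to 37955016, minus strand), was measured at 51.3, 51.5 and 47.9 CPM in WT lines and at 57.1, 60.8 and 57.2 CPM in KO lines. The ranges were apart, with a KO mean of 116% of the WT mean and a log2 fold change of 0.22 (SE 0.0623, unadjusted p = 0.0124, adjusted p = 0.212 in edgeR, 0.0593 to 0.772 over the alternatives).

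Hdac1 was measured at 79.8, 76.0 and 80.7 CPM in WT lines and at 85.2, 84.7 and 91.0 CPM in KO lines, with a log2 fold change of 0.14 (SE 0.0604, unadjusted p = 0.0553). Hdac2 was measured at 91.1, 95.1 and 91.1 CPM in WT lines and at 97.4, 106 and 97.4 CPM in KO lines, with a log2 fold change of 0.12 (SE 0.0615, unadjusted p = 0.107). The ranges of both genes were apart, but neither passed the test. Hdac8, which acts on cohesin as the deacetylase of SMC3, was measured at 7.21, 7.09 and 7.87 CPM in WT lines and at 6.91, 6.51 and 7.39 CPM in KO lines, with overlap. Summed per length, the class stood at 57.7, 57.5 and 57.2 CPM/kb in WT lines and at 62.0, 64.5 and 63.8 CPM/kb in KO lines, so that the ranges of the sum were apart as well. Hdac1 took 39.8% of the sum in either genotype. The summed level of the 12 proliferation markers was also higher in every KO line than in any WT line, although the ranges of only 4 of the 12 were apart, and their part in these values was not tested.

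**Figure D4:**
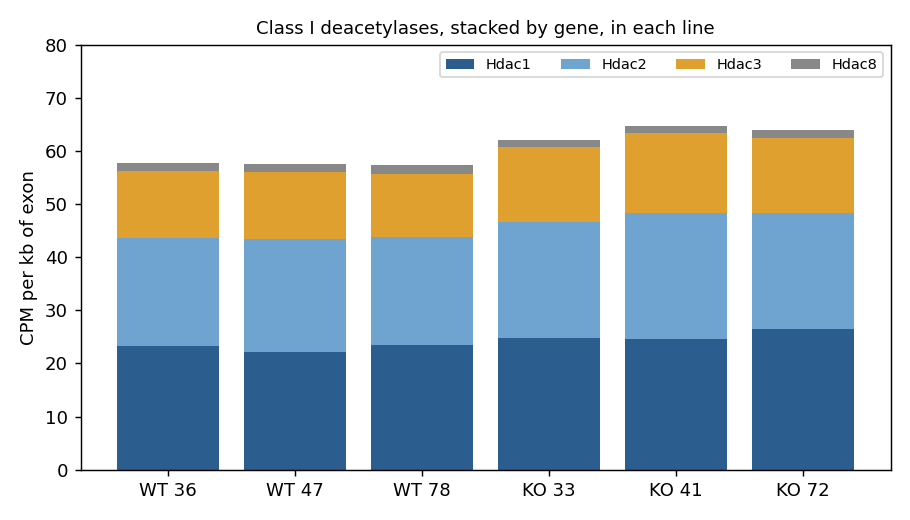
Summed level of Hdac1, Hdac2, Hdac3 and Hdac8 per kilobase of exon in each line, as bars stacked by gene from 0. The WT lines stand between 57.2 and 57.7 CPM/kb and the KO lines between 62.0 and 64.5 CPM/kb.

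Class IIa deacetylases have weak catalytic activity of their own, shuttle between cytoplasm and nucleus and bind MEF2 transcription factors. Hdac5 (chromosome 11, 102194432 to 102230166, minus strand) was measured at 107, 106 and 102 CPM in WT lines and at 91.6, 91.1 and 92.7 CPM in KO lines. The ranges were apart, with a KO mean of 87.4% of the WT mean and a log2 fold change of -0.19 (SE 0.0533, unadjusted p = 0.00997, adjusted p = 0.199 in edgeR, 0.0329 to 0.784 over the alternatives). Hdac9, the lowest of the class (chromosome 12, 34047580 to 34917095, minus strand), was measured at 8.90, 8.79 and 6.84 CPM in WT lines and at 4.57, 6.85 and 4.12 CPM in KO lines. WT line 78 and KO line 41 met at the edge of the ranges. Its log2 fold change was -0.66 (SE 0.23, unadjusted p = 0.0269, adjusted p = 0.278 in edgeR, 0.111 to 0.791 over the alternatives), and it lay between -0.91 and -0.40 over the alternatives, with an unadjusted p-value under 0.05 in 9 of 15.

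Hdac7 was measured at 91.2, 96.4 and 85.4 CPM in WT lines and at 105, 101 and 87.2 CPM in KO lines. It was the highest of the class per kilobase of exon, whereas Hdac5 was the highest per length of the longest transcript. Hdac4 was measured at 81.3, 82.2 and 92.3 CPM in WT lines and at 76.2, 77.8 and 112 CPM in KO lines. Hdac4 was thus highest of all in KO line 72 and lowest in the other KO lines. The class sum was 31.4 ± 0.804 CPM/kb in HAT1 WT and 30.9 ± 0.220 CPM/kb in HAT1 KO.

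Among the remaining zinc-dependent enzymes, Hdac6, the tubulin deacetylase, stood at 20.7 ± 1.85 CPM in HAT1 WT and 20.8 ± 1.33 CPM in HAT1 KO. Hdac10, a polyamine deacetylase, was measured at 5.46, 6.45 and 6.74 CPM in WT lines and at 8.10, 6.95 and 8.05 CPM in KO lines. Its ranges were apart, with a log2 fold change of 0.31 (SE 0.13, unadjusted p = 0.0595). Hdac11, which removes fatty acyl groups, stood at 4.82 ± 0.845 CPM in HAT1 WT and 4.95 ± 0.860 CPM in HAT1 KO.

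The sirtuins tie deacylation to NAD. Of the 7 genes 0 had an unadjusted p-value under 0.05, against 14.6% of all genes, and the KO and WT ranges of all 7 overlapped, against 22.0% of all genes with separate ranges. Sirt2, largely cytoplasmic, was by far the highest per length and took 52.2% of the class sum in HAT1 WT. It was measured at 78.8, 68.7 and 61.3 CPM in WT lines and at 63.9, 68.6 and 75.5 CPM in KO lines. The mitochondrial desuccinylase Sirt5 was the lowest, at 4.24, 3.39 and 4.33 CPM in WT lines and 3.73, 4.08 and 5.06 CPM in KO lines, and did not differ beyond the spread from Sirt3, whose exons overlap those of Psmd13 and Ric8a on the other strand. Sirt1, the nuclear deacetylase of p53 and histones, stood at 18.2 ± 0.361 CPM in HAT1 WT and 18.5 ± 0.862 CPM in HAT1 KO. The nuclear Sirt6 and Sirt7 had KO means of 114% and 87.3% of WT.

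**Figure D5:**
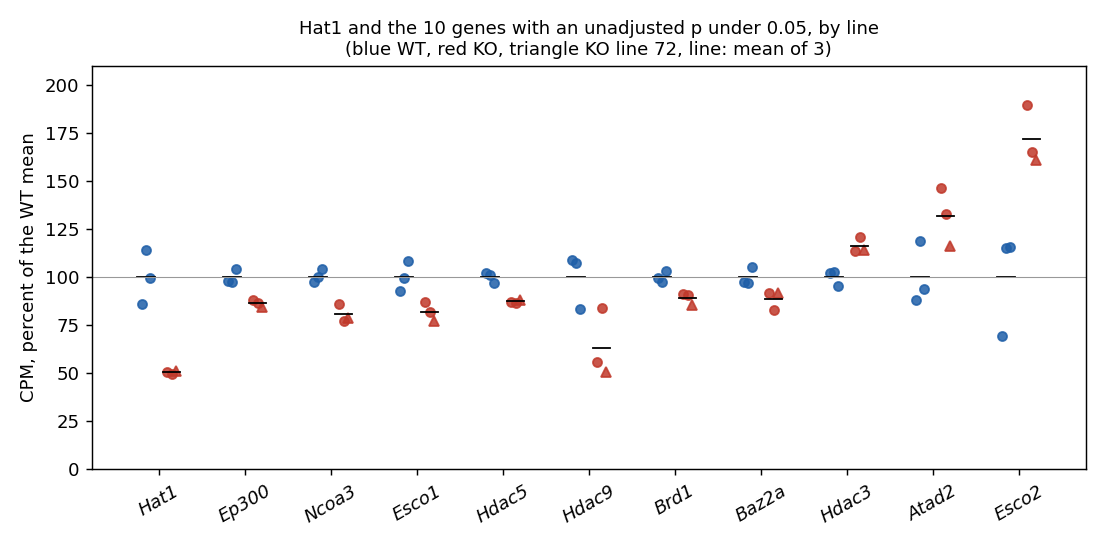
Level of Hat1 and of the 10 genes with an unadjusted p-value under 0.05 in each HAT1 WT (blue) and HAT1 KO (red) line, as a percent of the WT mean, with 1 point per line (KO line 72 as a triangle) and a bar for the mean of each genotype. The KO and WT points are apart for all but Hdac9 and Atad2.

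Of the 15 tested bromodomain readers 2 were lower and 1 was higher in HAT1 KO at an unadjusted p-value under 0.05 (13.3% and 6.67%, against 8.77% and 5.88% of all genes), and 12 had a negative log2 fold change. Their median log2 fold change was -0.083. Brd1, a scaffold of the MOZ and HBO1 acetyltransferase complexes (chromosome 15, 88687034 to 88734233, minus strand), was measured at 83.0, 81.3 and 86.3 CPM in WT lines and at 76.0, 75.7 and 71.2 CPM in KO lines. The ranges were apart, with a log2 fold change of -0.17 (SE 0.0589, unadjusted p = 0.0271, adjusted p = 0.279 in edgeR, 0.187 to 0.800 over the alternatives). The other scaffolds of the class, Brpf1 and Brpf3, had KO means of 88.8% and 111% of WT, the latter with 46.2 CPM in KO line 72 and between 31.1 and 35.7 CPM in the other lines.

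The BAZ proteins are large subunits of ISWI chromatin remodellers. Baz2a, the TIP5 subunit of the nucleolar remodeller (chromosome 10, 128091577 to 128129303, plus strand), was measured at 80.4, 79.7 and 86.8 CPM in WT lines and at 75.6, 68.1 and 75.5 CPM in KO lines. The ranges were apart, with a log2 fold change of -0.17 (SE 0.0709, unadjusted p = 0.0498, adjusted p = 0.340 in edgeR, 0.253 to 0.808 over the alternatives), and the unadjusted p-value stayed under 0.05 in only 3 of 15 alternatives. Baz1b, the WSTF protein and highest of the class, was measured at 174, 194 and 196 CPM in WT lines and at 191, 183 and 189 CPM in KO lines. Baz2b, the lowest, was measured at 36.4, 36.1 and 49.5 CPM in WT lines and at 32.9, 35.0 and 33 CPM in KO lines. All KO values of Baz2b were below the WT values, of which line 78 stood well above the others (log2 fold change -0.27, SE 0.14, unadjusted p = 0.0877). Without WT line 78 the log2 fold change of Baz2b was -0.10 (unadjusted p = 0.219 in edgeR). Baz1a had its lowest value, 38.4 CPM, in KO line 72.

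Bptf, the reader subunit of the NURF remodeller, was measured at 160, 154 and 186 CPM in WT lines and at 138, 150 and 143 CPM in KO lines. The ranges were apart, and the log2 fold change of -0.21 (SE 0.0888) had an unadjusted p of 0.0504. Cecr2, which pairs with ISWI enzymes in neural and germ cells, had 10, 8 and 5 counts in WT lines and 6, 2 and 0 in KO lines and was too low to be tested.

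The BET readers, which bind acetylated H4 at active genes, did not pass the test. Brd2 was the highest bromodomain gene per length (26.3 ± 1.95 CPM/kb in HAT1 WT) with a KO mean of 94.4% of WT, and Brd3 had 96.5%. Of the SWI/SNF subunits, Brd7 stood at 32.7 ± 1.31 CPM in HAT1 WT and 30.1 ± 1.42 CPM in HAT1 KO with separate ranges (log2 fold change -0.12, SE 0.0711, unadjusted p = 0.136), and Brd9 had a KO mean of 106% of WT. Brd8, of the TIP60 complex, had 99.9%.

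Atad2, a reader of acetylated H4 that is known for its link to replicating chromatin (chromosome 15, 58094044 to 58135082, minus strand), was the bromodomain gene with the highest log2 fold change. It was measured at 57.0, 76.8 and 60.7 CPM in WT lines and at 94.9, 86.2 and 75.4 CPM in KO lines. WT line 47 lay above KO line 72. The log2 fold change was 0.40 (SE 0.14, unadjusted p = 0.0272, adjusted p = 0.279 in edgeR, 0.125 to 0.808 over the alternatives). Its paralogue Atad2b stood at 28.0 ± 2.87 CPM in HAT1 WT and 25.8 ± 4.18 CPM in HAT1 KO, and the ratio of Atad2 to Atad2b per length was 2.11, 2.65 and 1.84 in WT lines and 3.01, 3.11 and 3.32 in KO lines (exact permutation p = 0.1, adjusted p = 0.3 over the 6 pairs). In the other 4 pairs the ranges of the ratio overlapped, with means in HAT1 WT and HAT1 KO of 0.761 and 0.706 for Ep300 to Crebbp, 1.61 and 1.77 for Kat2a to Kat2b, 0.904 and 0.889 for Hdac2 to Hdac1 and 2.33 and 2.28 for Brd2 to Brd3. The same lines stood at the edges for the proliferation markers, whose sum in WT line 47 was the highest of the WT lines and in KO line 72 the lowest of the KO lines. Of the 12 markers 9 were higher in HAT1 KO at an unadjusted p-value under 0.05 (75.0%, against 5.88% of all genes). Past the adjusted threshold in edgeR there were 0. Without KO line 72 the number at the unadjusted threshold was 10, against 9.06% of all genes in that fit. Mki67, a protein of cycling cells, was measured at 81.6, 143 and 116 CPM in WT lines and at 176, 139 and 113 CPM in KO lines and did not pass the test (unadjusted p = 0.224). The part of proliferation in the values of Esco2 and Atad2 was not tested.

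The macrophage and blood markers were lower in every KO line than in any WT line. All 10 had an unadjusted p-value under 0.05 and 8 an adjusted one in edgeR, against 8.77% and 0.528% of all genes called lower. The lower acetylation genes shared that direction, and the part of blood cells in their values was not tested. With sex-linked expression in the model, the genotype difference is that of the KO lines from WT line 78 alone. WT lines 36 and 47 then count toward the sex-linked term, so this fit is no check of all 6 lines. The log2 fold changes in that fit, which has 3 residual degrees of freedom, were -0.27 (Ep300), -0.40 (Esco1), -0.37 (Ncoa3), -0.15 (Hdac5), -0.40 (Hdac9), -0.22 (Brd1) and -0.25 (Baz2a). They were 0.57 for Esco2, 0.28 for Hdac3 and 0.50 for Atad2. All 3 KO lines and 1 of 3 WT lines lacked substantial Y-linked expression, so that with these lines sex and genotype can be separated only in part.

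The complexes in which these enzymes work were read from lists of 123 genes, of which 122 were tested. Of these 11 had an unadjusted p-value under 0.05 (9.02%, against 14.6% of all genes), 7 lower and 4 higher, and 0 an adjusted one in edgeR. The partners of HAT1 itself, Rbbp7 and Rbbp4, had log2 fold changes of 0.11 (SE 0.12) and 0.12 (SE 0.0843) with unadjusted p-values of 0.383 and 0.218. Their WT and KO ranges overlapped.

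Among partners of MYST enzymes 3 of 14 were lower at an unadjusted p-value under 0.05 (21.4%, against 8.77% of all genes), with 0 past the adjusted threshold in edgeR, and 12 of 14 had a negative log2 fold change. Phf20, a histone reader of the MOF complex, was measured at 57.8, 58.2 and 58.4 CPM in WT lines and at 47.6, 49.5 and 43.8 CPM in KO lines (log2 fold change -0.31, SE 0.0657, unadjusted p = 0.00304, adjusted p = 0.127 in edgeR). Its WT lines were nearly level, and every KO line was below them. Jade2, a subunit of HBO1 complexes, had a log2 fold change of -0.41 (SE 0.13), and Kansl1, the scaffold of the MOF complex, of -0.16 (SE 0.0598). Of the 14 TIP60 subunits 2 were called higher without adjustment (14.3%, against 5.88% of all genes), the paired AAA ATPases Ruvbl1 and Ruvbl2. Their log2 fold changes were 0.30 (SE 0.0848, adjusted p = 0.206 in edgeR) and 0.31 (SE 0.12, adjusted p = 0.308). The KO and WT ranges were apart for Ruvbl1 and overlapped for Ruvbl2. With lane in the model, or without WT line 36, WT line 78, KO line 33 or KO line 41, Ruvbl2 did not pass the unadjusted threshold of 0.05. Among the 13 SIN3 subunits, 2 were lower at that threshold (15.4%, against 8.77% of all genes). These were the related Arid4a and Arid4b, each with a log2 fold change of -0.28 (adjusted p = 0.303 and 0.319 in edgeR). In the other lists, Naa10, the catalytic subunit of the main amino-terminal acetyltransferase, had a log2 fold change of 0.31 (adjusted p = 0.318 in edgeR). Mllt1, a YEATS-domain reader, had 0.20 (adjusted p = 0.190). The methyltransferase Kmt2a had -0.25 (adjusted p = 0.336), with overlapping ranges. Nampt, which supplies NAD, had -0.33 (adjusted p = 0.231). Each was the only gene of its list with an unadjusted p-value under 0.05 (11.1%, 25.0%, 6.25% and 12.5%, against 14.6% of all genes). The SAGA and ATAC (18 genes), NuRD (9), CoREST (6), NCoR (5) and MiDAC and MIER (4) lists had 0 genes with an unadjusted p-value under 0.05, against 14.6% of all genes.

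Promoter windows from RefSeq (GRCm38.p6) were found for 38 of the 49 genes, in 51 windows of 250 bases before the start and 50 after. Kat6a, Esco1, Esco2, Ncoa3, Hdac1, Hdac3, Hdac10, Brd8, Baz1a, Cecr2 and Atad2 had none. The GC box of SP1 (GGGCGG, searched on both strands) occurred in 64.7% of the windows, against 55.3% of the windows of tested genes and 32.7% of all windows. The CCAAT box occurred in 31.4%, against 34.8% and 33.8%. Also searched were motifs of E2F (7.8%, against 3.1% and 1.9%), ETS (11.8%, against 12.2% and 6.9%), NRF1 (5.9%, against 3.8% and 2.3%) and CRE (3.9%, against 2.5% and 1.5%). The E2F matches lay in 4 windows. All these shares count the 250 bases before the start only. The windows are shown for Hdac5 and Brd1, as examples of lower genes with separate ranges, from their upstream bases only and with motif matches in capitals. Hdac5, chr11:102230173-102230422, minus strand, holds CCAAT boxes (ATTGG on the strand shown) and a GC box. Brd1, chr15:88734234-88734469, minus strand, is shown without the bases next to the start that an annotated exon covers, and holds 4 GC boxes, of which a pair overlaps.
Hdac5: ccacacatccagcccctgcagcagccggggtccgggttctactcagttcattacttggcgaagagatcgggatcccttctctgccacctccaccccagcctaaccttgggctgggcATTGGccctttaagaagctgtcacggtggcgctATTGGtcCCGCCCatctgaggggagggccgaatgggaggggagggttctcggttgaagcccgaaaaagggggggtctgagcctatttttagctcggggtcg
Brd1: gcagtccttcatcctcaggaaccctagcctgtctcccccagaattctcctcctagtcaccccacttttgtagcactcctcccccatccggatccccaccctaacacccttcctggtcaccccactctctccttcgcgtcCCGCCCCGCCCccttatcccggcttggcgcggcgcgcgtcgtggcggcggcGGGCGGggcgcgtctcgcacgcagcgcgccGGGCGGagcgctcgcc
The windows thus share the GC box, which most windows of tested genes hold. A match of letters is a description and says nothing of binding.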

How the data were processed

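RNA from 6 pMEF lines was made into TruSeq v2 libraries. The authors deposited raw read counts per gene. The deposited table also holds the authors' own log2 fold change, log2 CPM, F score, p-value and q-value, which were not used. The submitters' processing notes name mm10 and edgeR, and the aligner, the counter and the use of strand are not given in the sources used here. Genes were placed by Ensembl identifier in GENCODE M21 on GRCm38.

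Counts were filtered with filterByExpr (14773 of 17512 genes kept), scaled by TMM and tested two-sided with the quasi-likelihood test of edgeR 4.0.16 (R 4.3.3), with genotype alone in the model and Benjamini-Hochberg adjustment over all tested genes. Unadjusted p-values in the text come from the same fit. The script was tested on simulated data. Alternatives used DESeq2 1.42.0, limma 3.58.1 voom, other scalings and filters, lane or sex-linked expression in the model, halved counts (75.1% of counts from 1 to 10 were even, so a read pair may have entered as 2 reads), other thresholds, another exon length, and left out each line in turn. Leaving KO line 72 out of the marker counts was chosen after seeing the data. At 67720628 counts or more per library, the spread between lines and not counting error limits most genes.

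The genes and lists were chosen with earlier results of these data known. Values in every line are given for genes with an unadjusted p-value under 0.05, for Ep300, Crebbp and Kat2a, and for the highest and lowest gene of each class of 4 or more. They are also given for some genes chosen after their values were seen (Hdac2, Hdac4, Hdac10, Ncoa1, Bptf, Cecr2). From the partner lists, at most 3 genes per list with an unadjusted p-value under 0.05 are named, with Rbbp4 and Rbbp7.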

Additional observations from a re-analysis of the deposited data

How the results depend on the processing

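The direction of each of the 10 genes with an unadjusted p-value under 0.05 held under all 15 alternatives. The DESeq2 Wald test gave 4 genes an adjusted p-value under 0.05 in place of 0. The number lower at an unadjusted p-value under 0.05 was 7, against 8.77% of all genes. It was 1 with lane in the model and 4 to 5 when any line was left out, against 4.91% and 6.11% to 9.47%. The number higher was 3, and it was 5 with the DESeq2 Wald test, 5 with voom, 1 with lane in the model and 2 to 4 when a line was left out, against 5.88%, 7.49%, 7.42%, 1.39% and 3.02% to 9.06% of all genes. The number at 1.5-fold was 2, against 6.11% of all genes. It was 0 with lane, 0 at 2-fold, 0 at a p-value under 0.01 and 0 to 2 when a line was left out (0 without WT line 36). The median log2 fold change of -0.004 was -0.0970 with sex-linked expression and -0.0542 to 0.00424 when a line was left out. That of the complex partners was -0.0212 to 0.0102 when a line was left out. The 11 partners with an unadjusted p-value under 0.05 became 5 with lane, 19 with sex-linked expression and 5 to 17 when a line was left out, the highest without KO line 72. The 15 genes with separate ranges (against 22.0% of all genes) became 17 to 23 when a line was left out, since fewer lines separate more easily. With a line left out, the shares over all genes with separate ranges or at 1.5-fold were not counted. These numbers are therefore not read as a result about the listed genes. The log2 fold change of Hat1 was -1.10 with lane, -0.98 with sex-linked expression and -1.08 to -0.87 when a line was left out. With lane, or with any line left out, Hat1 was not past the adjusted threshold (adjusted p = 0.529 and 0.0587 to 0.230 in edgeR). With the length of the longest transcript, the order of levels changed for 4 MYST genes, 2 class IIa genes and 4 sirtuins. Unless stated, the cause was not tested. The lane model has 2 residual degrees of freedom and the sex-linked model 3. In the lane model WT line 36, alone on its lane, adds nothing to the genotype difference. The sex-linked model compares the KO lines with WT line 78 alone, so its numbers of calls are left out. The counts out of 15 alternatives and the numbers for single genes that follow do include that model. For single genes, 360 other values kept their side of the threshold, 90 lost it and 15 gained it. No paired analysis was possible because the genotypes share no replicate numbers.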

Other observations

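Among the 48 tested acetylation genes, those with longer exons had lower log2 fold changes. Spearman's rho between exon length and log2 fold change, KO minus WT, was -0.44 over the 48 genes and -0.11 over the 14773 tested genes. The 7 lower genes had a median exon length of 8.78 kb, the 3 higher ones 6.65 kb and the other 38 genes 6.03 kb. Among those 38 genes rho was -0.48. These are descriptions across genes measured in the same 6 libraries, and genes are not independent replicates. Longer genes also collect more reads at the same level.

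Hdac4 and Brpf3 had their highest and Baz1a its lowest level of the 6 lines in KO line 72.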
